A study of Mus musculus with 6 samples.

Results

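The Notch genes described here were 10 members of 1 signalling pathway: the ligands Jag1, Dll1 and Dll4, the receptors Notch1, Notch2 and Notch3, and the transcriptional repressors Hes1, Hey1, Hey2 and Heyl. They were chosen by name as members of the pathway, with earlier results of these data known. All 10 had an entry of their own, 1 each, among the 19938 genes named in the table. The values came from 6 single-colour Affymetrix arrays of total RNA. One array held lymph node (LN) stroma, freshly sorted from adult C57BL/6JJcl mice as podoplanin- and VCAM-1-positive cells lacking CD45 and CD31. A further 4 held BLS12 and BLS4, stromal lines established from adult BALB/cA LN. Each line was grown for 2 days with 1 µg/ml of an agonistic goat polyclonal antibody to LTβR, the lymphotoxin β receptor, or left unstimulated. The last held embryonic fibroblasts (MEF), grown in culture from embryos (E11.5-13.5) of C57BL/6JJcl mice.

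Each line had 1 array per condition, LN stroma and MEF had 1 array each, and no control antibody was among the samples. How many mice were pooled, and whether a line is 1 clone, is not given in the labels. LN stroma differed from the lines both in strain and in not having been cultured, and from MEF in age, tissue and culture. The lines differed from MEF in strain, age and tissue. These factors and the groups cannot be told apart. The arrays were close in median intensity, from 51.5 to 56.3. Of 12 markers of fibroblastic reticular cells with an entry, 12 lay at or above the array median in LN stroma, 9 to 11 in the line arrays and 9 in MEF. Ccl19, a chemokine of these cells, stood at 12.49 log2 intensity in LN stroma, 6.04 to 6.39 in the lines and 6.08 in MEF, so this defining transcript lay close to the MEF level in the lines. The interleukin gene Il7 lay below the median in all 4 line arrays and in MEF. Other markers ran otherwise, and Pdgfra stood at 12.26 in LN stroma, 11.12 to 12.38 in the lines and 8.22 in MEF. LN stroma was the highest array for 7 of the 12, a line array for 5 and MEF for 0.

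Notch receptors are membrane proteins that are cut when a ligand of the Jagged or Delta-like type on a neighbouring cell binds them. The released inner part enters the nucleus and, with the DNA-binding protein RBPJ, activates genes of the Hes and Hey families, which encode bHLH repressors. In lymphoid organs, Delta-like ligands on stromal cells are known to instruct B and T cells, and Notch3 is best known from mural cells of vessels.

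RefSeq promoter windows (build GRCm38.p6, from 250 bases before to 50 after a start site) were held for 7 of the 10 genes. There was no window for Hes1, Hey1 or Heyl, so these were not searched, and Hey2 was the only Hes or Hey gene searched. Those of Notch3, Jag1 and Hey2 are shown: Notch3 had the widest range over the arrays, Jag1 went opposite ways in the lines, and Hey2 was the 1 gene of the 7 with a match to the RBPJ core. Capitals mark matches on either strand to the RBPJ core TGGGAA or to CACNAG, the N-box bound by Hes repressors.
Notch3, chr17:32166841-32167140, minus strand: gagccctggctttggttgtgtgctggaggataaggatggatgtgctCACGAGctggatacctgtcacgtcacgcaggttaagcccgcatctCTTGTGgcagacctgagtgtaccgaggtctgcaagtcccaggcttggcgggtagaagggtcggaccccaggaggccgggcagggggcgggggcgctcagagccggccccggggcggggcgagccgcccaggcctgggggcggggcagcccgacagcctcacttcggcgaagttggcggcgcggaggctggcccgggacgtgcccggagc
Jag1, chr2:137116471-137116770, minus strand: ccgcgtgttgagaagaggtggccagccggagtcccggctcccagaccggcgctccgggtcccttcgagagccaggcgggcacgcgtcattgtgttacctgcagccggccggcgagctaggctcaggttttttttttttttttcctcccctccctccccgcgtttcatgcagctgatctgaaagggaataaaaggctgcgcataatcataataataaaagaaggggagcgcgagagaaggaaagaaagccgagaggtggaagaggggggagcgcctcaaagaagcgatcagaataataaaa
Hey2, chr10:30842734-30843033, minus strand: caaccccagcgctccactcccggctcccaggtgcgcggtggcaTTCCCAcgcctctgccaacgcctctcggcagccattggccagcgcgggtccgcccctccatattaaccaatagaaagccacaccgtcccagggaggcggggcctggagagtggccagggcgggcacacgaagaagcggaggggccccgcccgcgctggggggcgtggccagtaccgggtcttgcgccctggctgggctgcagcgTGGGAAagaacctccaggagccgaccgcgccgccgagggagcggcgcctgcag
The RBPJ core was matched 2 times in the Hey2 window and in 25.6% of the 32851 promoter windows of the table. The N-box was matched 2 times in the Notch3 window, in windows of 5 of the 7 genes and in 42.5% of all windows. The E-box CACGTG, found in 7.15% of all windows, was matched in 0 of these 7 genes. Such matches describe letters, and none was tested as a binding site.

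Levels are given as log2 of the deposited intensity, and an array's median lay between 5.69 and 5.82 on this scale. Levels of different genes come from different probes and are not set against each other. A step between arrays is called within the spread where it was smaller than the SD of a difference between 2 arrays of that gene. The SD was taken from the fit to the line arrays, so it includes any disagreement between the lines in antibody effect. LN stroma and MEF did not enter it.

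**Figure D1:**
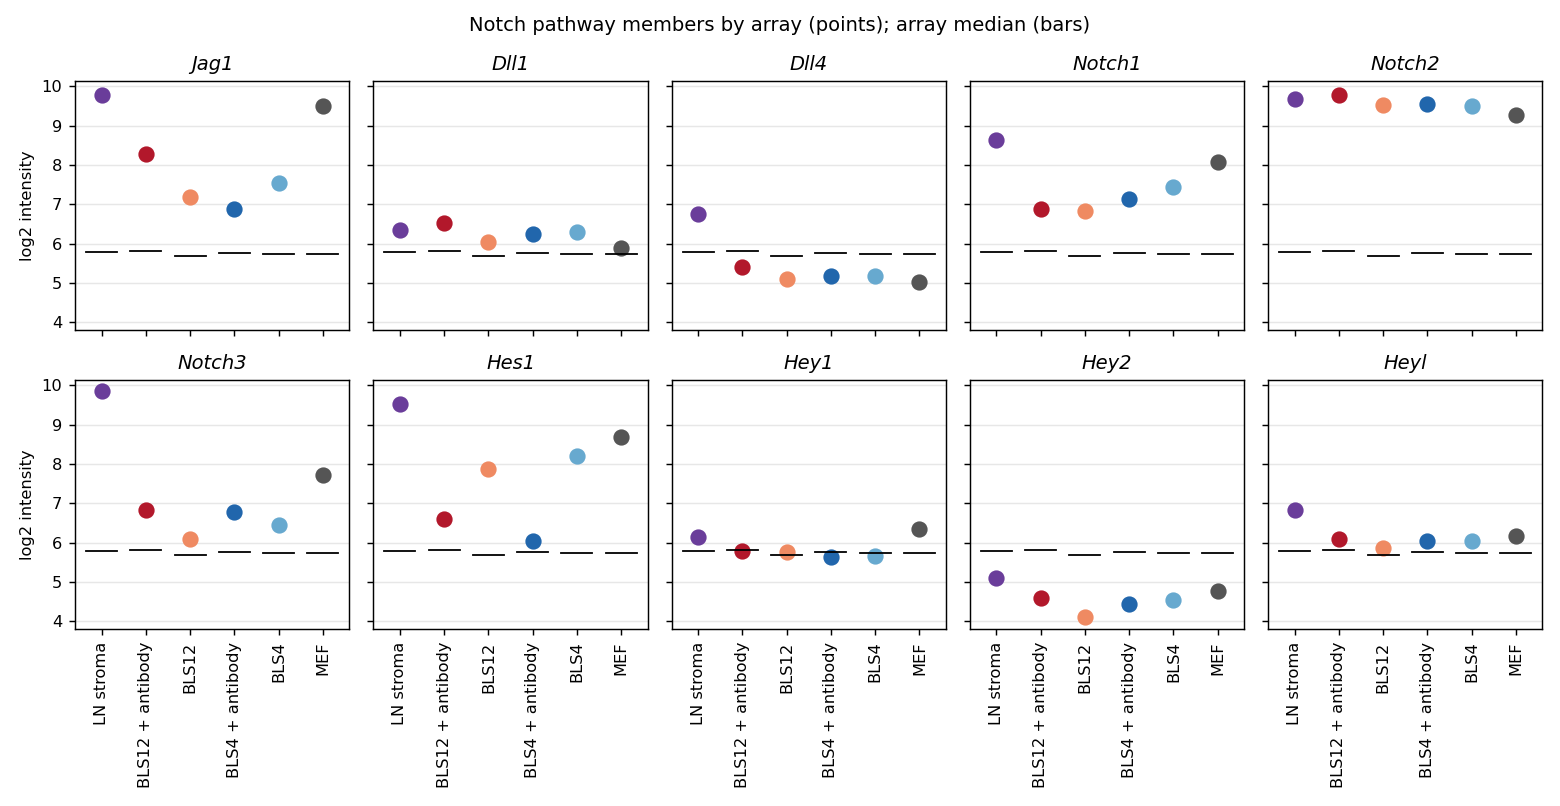
Log2 intensity (vertical axis) of the 10 Notch genes in each of the 6 arrays (horizontal axis), 1 point an array and 1 panel a gene, with a short bar at each array's median. Jag1, Dll4, Notch1, Notch3, Hes1, Hey2 and Heyl were highest in LN stroma, and Hes1 was lowest in the 2 antibody-treated arrays.

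Freshly sorted LN stroma carried the highest level of most of these genes. LN stroma was the highest of the 6 arrays for 7 of the 10, where 21.1% of all genes had it highest. It lay above all 4 line arrays for 8 of the 10, against 24.9% of all genes. The exceptions were Dll1 and Notch2, for which antibody-treated BLS12 was highest. Over all 10 genes, the median difference of LN stroma from the 2 unstimulated lines was 1.19 log2 units, with the median over all 19938 genes at -0.02. A single LN stroma array entered these comparisons, so none of them was tested. As the members were chosen with earlier results of these data known, the shares over all genes are given for description only. In whole-population RNA, fewer cells of a type and less RNA per cell cannot be told apart.

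Among the ligands, Jag1 had a log2 intensity of 9.77 in LN stroma, 8.28 in BLS12 with antibody, 7.18 in unstimulated BLS12, 6.87 in BLS4 with antibody, 7.54 in unstimulated BLS4 and 9.51 in MEF. LN stroma and MEF were 0.26 apart, and every line array was lower than both. That step was within the spread, but the spread of Jag1 (0.54) includes the opposite antibody differences of its lines. It does not measure how LN stroma and MEF arrays vary. Dll4, a ligand known from arterial endothelium and from stromal niches of lymphoid organs, stood at 6.76 in LN stroma, 5.42 in BLS12 with antibody, 5.11 in unstimulated BLS12, 5.18 in BLS4 with antibody, 5.18 in unstimulated BLS4 and 5.02 in MEF. It lay above the array median in LN stroma alone, so its differences rest on a level near background in the other 5 arrays. Dll1, a ligand known to drive marginal zone B cell formation in mouse spleen, ran from 5.88 in MEF to 6.53 in BLS12 with antibody, with LN stroma at 6.36 and every step between neighbours within the spread.

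Because Dll4 is also made by endothelium, the endothelial markers are given beside it. Of 19 such markers, 12 lay at or above the median in LN stroma, 6 to 8 in the line arrays and 10 in MEF. Their summed intensity was 1436 in LN stroma, 998 to 1725 in the lines and 2022 in MEF. Without Efnb2, an ephrin gene that was the brightest of them in the lines, it was 1388 in LN stroma, 818 to 882 in the lines and 1465 in MEF. LN stroma was the highest of the 6 arrays for 10 of the 19, MEF for 6 and a line array for 3. Pecam1, which encodes the CD31 used to remove endothelium in the sort, stood at 6.44 log2 intensity in LN stroma, 4.82 to 5.08 in the lines and 4.73 in MEF. Cdh5, the cadherin of endothelial junctions, stood at 5.97 in LN stroma and 4.64 to 5.25 in the other 5 arrays. Tek, an angiopoietin receptor, stood at 8.18 in LN stroma, 5.72 to 6.61 in the lines and 5.18 in MEF. The VEGF receptor genes were instead highest in MEF, with Kdr at 5.96 in LN stroma and 7.93 in MEF, and Flt1 at 6.31 in LN stroma and 8.12 in MEF. Erg, Sox17, Lyve1 and Prox1 lay below the median in LN stroma. The part of these cells in the Dll4 level was not tested.

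Of the receptors, Notch3 differed most. It stood at 9.85 in LN stroma, 6.84 in BLS12 with antibody, 6.09 in unstimulated BLS12, 6.78 in BLS4 with antibody, 6.44 in unstimulated BLS4 and 7.71 in MEF. LN stroma was 3.76 log2 units above unstimulated BLS12, 3.41 above unstimulated BLS4 and 2.14 above MEF, and even MEF, the nearest array, was more than 4-fold lower. Notch1 stood at 8.64 in LN stroma, 6.87 in BLS12 with antibody, 6.83 in unstimulated BLS12, 7.14 in BLS4 with antibody, 7.45 in unstimulated BLS4 and 8.08 in MEF. Its order was LN stroma, MEF, BLS4 and then BLS12, and the 2 BLS12 arrays were within the spread of each other. Notch2 was close to even, from 9.27 in MEF to 9.78 in BLS12 with antibody, with the other arrays within the spread of their neighbours and MEF below them.

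Mural cell markers are given beside Notch3, which those cells are known to express. The sort that gave LN stroma took podoplanin- and VCAM-1-positive cells. Of 14 pericyte and smooth muscle markers, 13 lay at or above the median in LN stroma, 7 to 10 in the line arrays and 11 in MEF, with summed intensities of 15328 in LN stroma, 4469 to 6423 in the lines and 19369 in MEF. Without Acta2, the smooth muscle actin gene and the brightest of them in the lines, the sums were 12768 in LN stroma, 1385 to 1929 in the lines and 9315 in MEF. LN stroma was the highest array for 6 of the 14, MEF for 5 and a line array for 3. Rgs5, a pericyte regulator of G protein signalling, stood at 11.30 log2 intensity in LN stroma, 4.32 to 4.75 in the lines and 6.62 in MEF. Abcc9, a potassium channel subunit of pericytes, stood at 12.18 in LN stroma, 5.13 to 5.34 in the lines and 5.35 in MEF. The contractile genes were divided: Acta2 stood at 11.32 in LN stroma, the lowest array, 11.59 to 12.14 in the lines and 13.30 in MEF. Cnn1, the calponin gene, stood at 6.15 in LN stroma, 5.88 to 7.88 in the lines and 10.20 in MEF. Myh11, the smooth muscle myosin gene, was instead highest in LN stroma, at 9.54, with 5.78 to 5.90 in the lines and 7.62 in MEF. The pericyte markers were divided too, with Cspg4 and Mcam highest in MEF. Cspg4 stood at 6.17 in LN stroma and 8.27 in MEF, and Mcam at 7.62 in LN stroma and 10.53 in MEF. Itga7 stood at 6.79 in LN stroma and was highest in antibody-treated BLS12, at 9.29. Higd1b, another pericyte marker, was below the median in all 6 arrays. The part of mural cells in the Notch3 level was not tested. The 8 lymphocyte markers with an entry were all below the median in LN stroma. LN stroma was still the highest array for 6 of the 8, and a line array for 2. Ptprc, which encodes the CD45 lacking on the sorted cells, stood at 5.70 in LN stroma, 4.06 to 4.54 in the lines and 5.26 in MEF.

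Of the target genes, Hes1 stood at 9.53 in LN stroma, 6.61 in BLS12 with antibody, 7.87 in unstimulated BLS12, 6.05 in BLS4 with antibody, 8.21 in unstimulated BLS4 and 8.70 in MEF. All 5 steps in this order exceeded the spread, and both antibody-treated arrays were at the bottom, as they were for 3.48% of all genes. Heyl, a Hey-family repressor known from vascular smooth muscle, stood at 6.82 in LN stroma and between 5.86 and 6.17 in the other 5 arrays, which were within the spread of their neighbours. Hey1 was the 1 member highest in MEF, at 6.36, with LN stroma at 6.15 and the lines from 5.64 to 5.79. Hey2 was below the median in all 6 arrays, with 5.10 in LN stroma, 4.10 to 4.58 in the lines and 4.77 in MEF, so the size of its differences is approximate.

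**Figure D2:**
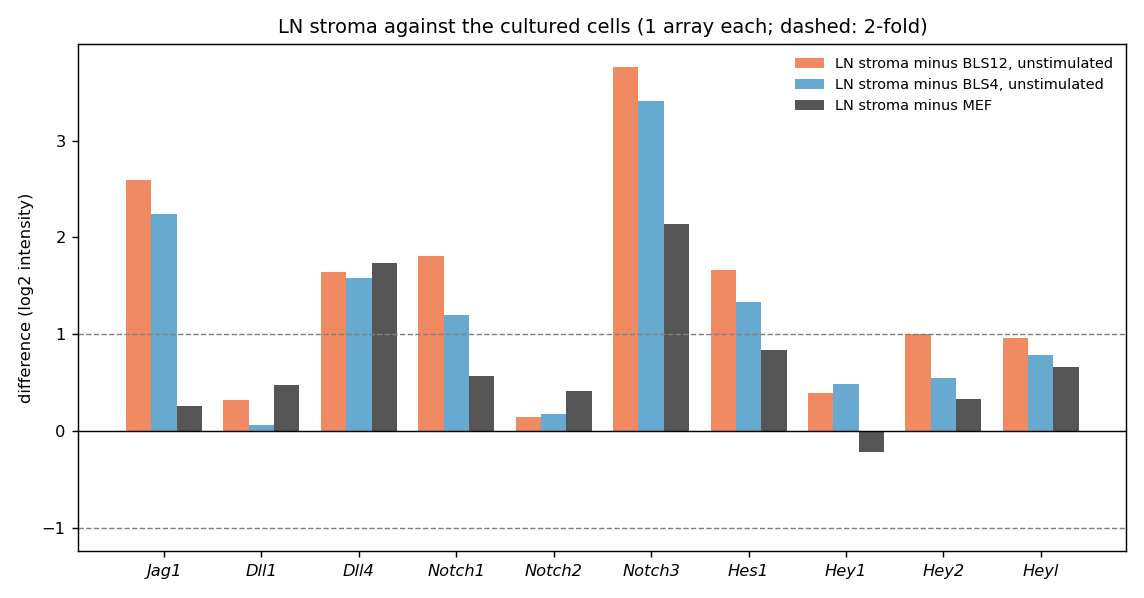
Difference in log2 intensity (vertical axis) of LN stroma from unstimulated BLS12, from unstimulated BLS4 and from MEF (bars) for each of the 10 Notch genes (horizontal axis), with dashed lines at 2-fold and 1 array on each side. Notch3 had the tallest bar in each of the 3 comparisons, and Jag1 differed from both lines but by 0.26 from MEF.

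Calls by size were made over genes with at least 1 of the arrays compared at or above its median. For LN stroma against both unstimulated lines, 11.3% of 12827 genes differed at least 2-fold from both in the same direction, with 7.03% of genes higher and 4.25% lower in LN stroma. Of the 10 Notch genes 9 were kept, and 5 were higher: Jag1, Dll4, Notch1, Notch3 and Hes1, and 0 were lower. Dll4 was kept through its LN stroma level alone. At 4-fold, which 4.09% of genes passed and 3.52% passed as higher in LN stroma, Jag1 (2.59 above BLS12 and 2.24 above BLS4) and Notch3 were left. The 2 differences of a gene share the LN stroma array.

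For LN stroma against MEF, 22.3% of 12612 genes differed at least 2-fold, 10.2% higher and 12.1% lower in LN stroma. Of the 9 Notch genes kept, Notch3 (2.14) and Dll4 (1.73) were higher in LN stroma and 0 were lower. Here too Dll4 was kept through its LN stroma level alone, so it could be called only as higher. Hes1 differed by 0.84, Heyl by 0.66, Notch1 by 0.57, Dll1 by 0.48, Notch2 by 0.41, Jag1 by 0.26 and Hey1 by -0.22, all under 2-fold. For the unstimulated lines against MEF, 5.82% of 12676 genes differed at least 2-fold in both lines, 1.97% higher and 3.85% lower in the lines. Of 8 Notch genes kept, 0 were higher and 2 were lower in the lines, with Jag1 at -2.33 in BLS12 and -1.98 in BLS4 and Notch3 at -1.62 in BLS12 and -1.27 in BLS4. Notch1 differed from MEF by -1.24 in BLS12 and by -0.63 in BLS4, on either side of 2-fold. The comparisons of LN stroma and of the lines with MEF share the MEF array.

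The antibody comparison asked which of these genes changed when LTβR was engaged, with each line as its own control. Hes1 was lower with antibody in both lines, the 1 Notch gene to differ by at least 2-fold in both. Its intensity was 97.7 in antibody-treated and 233.6 in unstimulated BLS12, and 66.4 in antibody-treated and 295.2 in unstimulated BLS4. The log2 difference was -1.26 for BLS12 and -2.15 for BLS4. The mean difference was -1.71 (SE 0.234, n = 2 lines) with an adjusted p = 0.0798 in limma over 11988 genes, which missed the threshold of 0.05. It passed with each array centred on its median (adjusted p = 0.0139) and among genes above the median in all 4 arrays (adjusted p = 0.0338), and over the alternatives its adjusted p in limma ran from 0.0139 to 1. Of the 14 pericyte and smooth muscle markers, 7 with antibody against 8 without lay at or above the median in BLS12, and 10 against 10 in BLS4. Their summed intensity was lower with antibody, at 4951 against 6409 in BLS12 and 4469 against 6423 in BLS4. Without Acta2 the sums were 1727 against 1929 in BLS12 and 1385 against 1916 in BLS4. Of the 14 markers, 4 were lower and 3 higher with antibody in both lines. Their part in the Hes1 difference was not tested.

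In the limma fit 0.275% of genes passed, and 0 of the 7 Notch genes kept did. At an unadjusted p under 0.05, which 11.6% of genes reached, there were 2, Hes1 and Notch3. By size, 0.667% of genes differed at least 2-fold in both lines in the same direction and 0.234% of genes were lower with antibody by that size, among them Hes1. Notch3 was higher with antibody in both lines, at 6.84 in treated against 6.09 in unstimulated BLS12 and 6.78 against 6.44 in BLS4. Its mean difference of 0.54 (SE 0.163, n = 2 lines, adjusted p = 0.306 in limma) did not pass. Both treated arrays lay well below LN stroma.

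**Figure D3:**
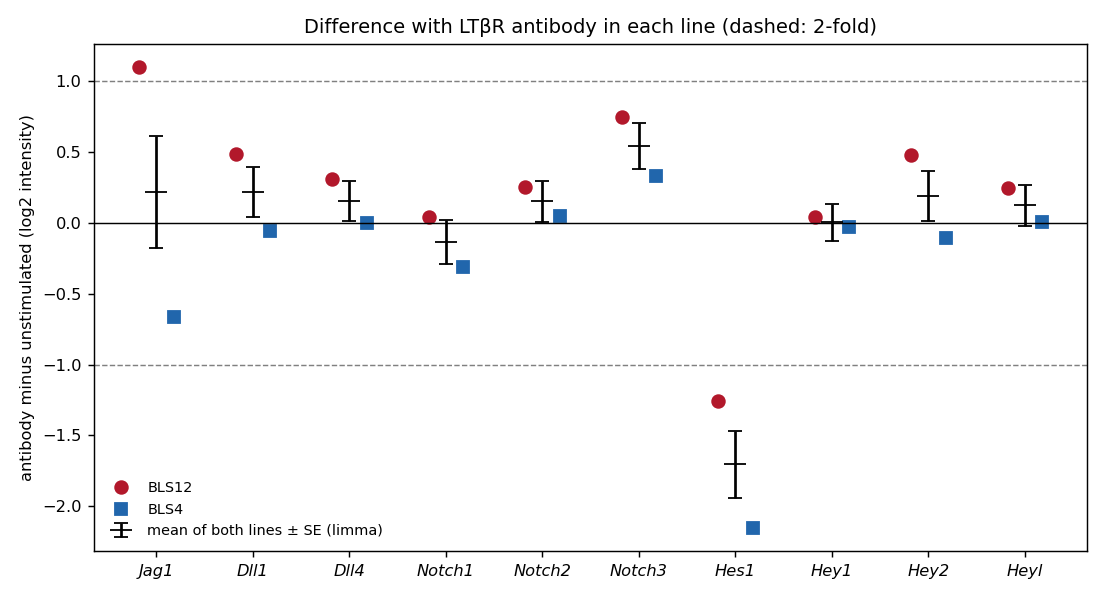
Antibody-treated minus unstimulated log2 intensity (vertical axis) in BLS12 (circles) and BLS4 (squares) for each of the 10 Notch genes (horizontal axis), with the mean of both lines and its SE from limma, and dashed lines at 2-fold. Hes1 lies below -1 in both lines, while Jag1 lies at 1.10 in BLS12 and -0.66 in BLS4.

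Jag1 went opposite ways in the lines. Its intensity was 310.7 in antibody-treated and 145.0 in unstimulated BLS12, a log2 difference of 1.10. It was 117.3 in antibody-treated and 185.5 in unstimulated BLS4, a log2 difference of -0.66. With the lines averaged, its difference was 0.22 (SE 0.397, n = 2 lines, adjusted p = 0.875 in limma). The 2 differences were 1.76 log2 units apart, and 61 of the 11988 genes kept (0.509%) had lines at least as far apart, a count made after the values of Jag1 were seen. With 1 array per line and condition, the difference between the lines in antibody effect was not tested. The 9 proliferation markers lay at or above the median in all 4 line arrays, and their summed intensities also went opposite ways: 3211 with antibody against 6024 without in BLS12, and 1765 against 1328 in BLS4. Other marker sums, given next, differed more in BLS12 than in BLS4. That of 10 epithelial and mesothelial markers was 2683 with antibody against 5244 without in BLS12, and 593 against 608 in BLS4. That of 10 myeloid markers was 1953 with antibody against 747 without in BLS12, and 825 against 811 in BLS4. Without Lyz2, the brightest of the myeloid markers in the lines, it was 1161 against 521 in BLS12 and 595 against 438 in BLS4. The part of these 3 lists in the Jag1 difference was not tested.

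The other 4 Notch genes kept had differences under 2-fold in both lines. Averaged over the lines, Dll1 differed by 0.22 (SE 0.179), Notch2 by 0.15 (SE 0.143), Heyl by 0.12 (SE 0.146) and Notch1 by -0.13 (SE 0.155), with adjusted p-values from 0.691 to 0.796 in limma. Hey1, Dll4 and Hey2 were below the filter. Hey1 differed by 0.04 in BLS12 and -0.03 in BLS4, and Hey2 by 0.48 in BLS12 and -0.11 in BLS4. Dll4 differed by 0.31 in BLS12 and stood at 5.18 in both BLS4 arrays. None of the 3 Hey genes, including Heyl, differed 2-fold in either line. Whether the antibody effect on Hes1 differed from that on the Hey genes was not tested.

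**Figure D4:**
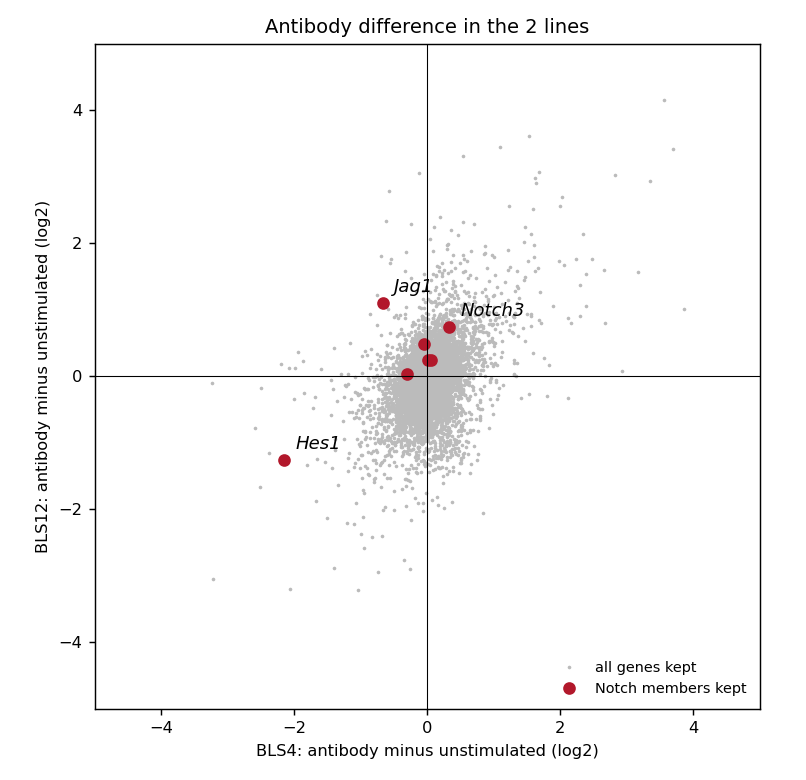
Antibody-treated minus unstimulated log2 intensity in BLS4 (horizontal axis) and in BLS12 (vertical axis) for all 11988 genes kept (grey) and the 7 Notch genes kept (red). Hes1 lies in the lower left, away from the bulk of genes, and Jag1 in the upper left.

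Between the lines, no Notch gene passed the test, and Notch1 came nearest. In limma 23.6% of the 11988 genes differed between BLS12 and BLS4, while 0 of the 7 Notch genes kept passed. The treated and unstimulated arrays of a line served as its replicates here and share its origin. The SE therefore includes any difference between the lines in antibody effect. At an unadjusted p under 0.05, which 38.8% of genes reached, 1 did. That was Notch1, with a mean difference of -0.44 log2 units (SE 0.155, adjusted p = 0.0967 in limma), with BLS12 minus BLS4 at -0.26 in treated and -0.61 in unstimulated cells. For Jag1, BLS12 minus BLS4 was 1.41 in treated and -0.36 in unstimulated cells, with a mean of 0.52 (SE 0.397, adjusted p = 0.388 in limma). For Hes1 it was 0.56 in treated and -0.34 in unstimulated cells, and for Notch3 it was 0.06 in treated and -0.35 in unstimulated cells. At 2-fold in both conditions, where 6.25% of genes differed, there were 0 Notch genes. Dll1, Notch2 and Heyl differed on average by 0.01, 0.13 and -0.06, with SE of 0.143 to 0.179.

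The rest of the pathway was followed in 6 lists with 67 genes, of which 63 had an entry. With antibody, 57 were kept, 0 rose and 0 fell in limma, and 8 had an unadjusted p under 0.05, beside 0.275% of all genes past the threshold and 11.6% at that unadjusted p. Among the 8, Dtx4, a Deltex-family ubiquitin ligase of the Notch pathway, was higher with antibody by 1.15 log2 units in BLS12 and 1.22 in BLS4. Its mean difference of 1.19 (SE 0.138, adjusted p = 0.0528 in limma) missed the threshold, and it was the 1 listed gene at least 2-fold apart in both lines, where 0.667% of all genes were. Myc differed by 1.26 (SE 0.223, adjusted p = 0.117), and Bhlhe41, a bHLH repressor related to the Hes proteins, by -0.86 (SE 0.146, adjusted p = 0.109). Rbpj, the DNA-binding partner of Notch, differed by 0.27 (SE 0.148, adjusted p = 0.566).

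By list, the differences with antibody had medians of 0.12 for other ligands and the receptor Notch4 (4 kept), 0.01 for other repressors and targets (12 kept), -0.05 for the nuclear complex (14 kept), -0.03 for receptor cleavage (9 kept), -0.17 for glycosylation of the receptor (4 kept) and 0.01 for endocytosis and turnover (14 kept), with -0.02 over all genes kept. Between the lines, 14 of the 57 passed, 6 higher and 8 lower in BLS12, beside the 23.6% of all genes. Higher in BLS12 were Psen2, a catalytic subunit of γ-secretase (1.67, SE 0.291, adjusted p = 0.0149), Myc, the corepressor Tle4 (1.14, SE 0.143, adjusted p = 0.00622), Dtx3, Dtx4 and Epn2. Lower in BLS12 were Bhlhe41 (-1.85, SE 0.146, adjusted p = 0.00156), Id3, the coactivator Maml2, the protease Furin (-0.91, SE 0.137, adjusted p = 0.01), the glycosyltransferases Lfng and Poglut1, Numbl and Dtx2. Adjusted p-values here are from limma.

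In the comparisons with 1 array, listed genes were counted at 2-fold and named at 4-fold. At 2-fold, 7 of 59 were higher and 3 lower in LN stroma than in MEF, beside 10.2% higher and 12.1% lower of all genes. In both lines against MEF, 1 of 59 was higher and 1 lower, beside 1.97% and 3.85% of all genes. In LN stroma against both lines, 7 of 57 were higher and 1 lower, beside 7.03% and 4.25% of all genes. At 4-fold, 7.57% of all genes were called for LN stroma against MEF. Of 59 listed genes, Bhlhe40 (2.29) and Dtx4 (2.20) were higher in LN stroma, and Dner, a Notch ligand known from neurons, was lower (-2.27). Dner was also lower than in MEF in both unstimulated lines, at -2.56 in BLS12 and -2.24 in BLS4. It was the 1 listed gene called there, where 1.44% of all genes were. Dner stood at 7.65 in MEF and below the array median in LN stroma (5.38), unstimulated BLS12 (5.09) and unstimulated BLS4 (5.42). It was kept through its MEF level alone, so the size of its differences is approximate. Against the lines, where 4.09% of all genes were called, 1 of 57 was, Id3, a helix-loop-helix inhibitor, which was higher in LN stroma by 2.84 than in BLS12 and by 2.22 than in BLS4. Of the other ligands and the receptor Notch4, LN stroma minus MEF was -0.74 for Dlk1, -0.16 for Dll3, -0.08 for Jag2, 0.13 for Dlk2 and 0.11 for Notch4.

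The genes with profiles most like those of the 4 widest-ranging members were found by the root mean square distance between profiles centred on their own means, over 6 arrays and 13165 genes. For Notch3 they were Eln, the elastin gene, at 0.219 log2 units, Dpp4 at 0.252 and Armh4 at 0.257. For Jag1 they were Flrt3 at 0.266, Sorcs2 at 0.359 and Dchs1 at 0.382. For Notch1 they were Btbd11 at 0.0745, Sntb1 at 0.100 and Fbxo33 at 0.109. Hes1 had more distant neighbours, with Tns1 at 0.443, Plxdc2 at 0.488 and Adamts12 at 0.509, and relative to its own mean it lay below all 3 of them in antibody-treated BLS4. The arrays of a line share its origin, so these distances describe the 6 arrays only.

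**Figure D5:**
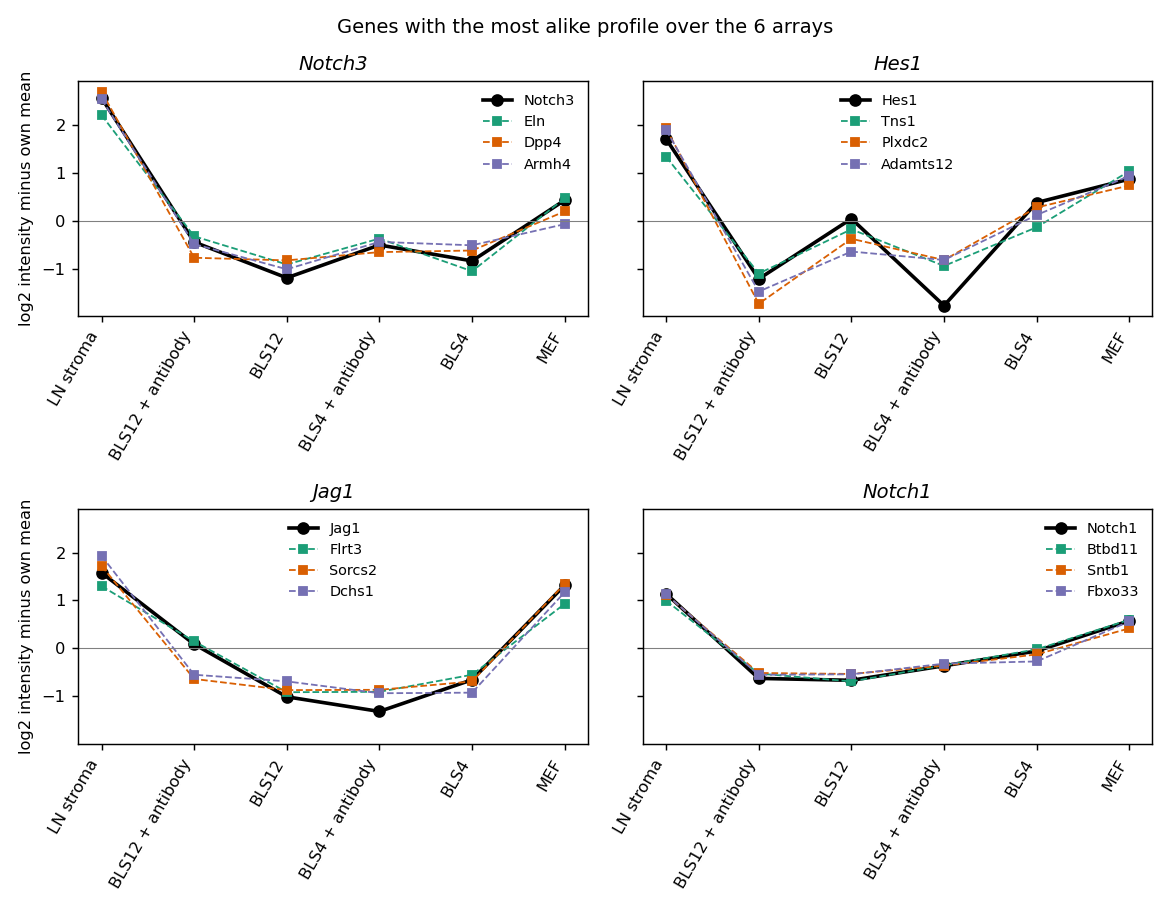
Log2 intensity minus the gene's own mean (vertical axis) over the 6 arrays (horizontal axis) for Notch3, Hes1, Jag1 and Notch1 (black) and the 3 genes nearest to each (coloured), with lines joining points to guide the eye. LN stroma is the highest array in all 4 panels for the member, and Hes1 departs from its nearest genes in antibody-treated BLS4.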

How the data were processed

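The authors deposited 1 linear intensity per transcript cluster and array, from Affymetrix Expression Console 1.1 per the submitters' processing notes. Its summary algorithm and the genome build are not given in the sources used here. As the lowest value was 3.55, log2 needed no pseudocount. Of 35557 entries, 21789 named 1 gene, 1621 several and 12147 none. Only those with 1 gene were used, the brightest entry standing for the 999 genes with several. Arrays give no counts, so precision is limited by how many there are.

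Antibody and cell line effects came from 1 additive limma model (limma 3.58.1, R 4.3.3, lmFit and eBayes, two-sided) over the 4 line arrays. Genes needed at least 2 of them at or above the array median. P-values were adjusted by Benjamini-Hochberg over all genes kept. The model had 1 residual and 4.59 prior degrees of freedom. The cell line pairs the arrays: deviations from the condition means correlated with r = 0.848 within a line, across genes. Nothing in the labels says that arrays came from separate cultures, so p-values cover only how these samples vary, which may be technical. With LN stroma or MEF, differences were called at 2-fold without a test, and pathway genes were named at 4-fold.

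The members and lists were chosen with earlier results of these data known. Named beyond the members were listed genes past the threshold or past 4-fold and the 3 genes nearest in profile; Rbpj, the markers given with values, the other ligands, Notch4 and listed genes that missed the threshold were picked after their values were seen. Other scalings, filters, folds, entries and left-out arrays were tried.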

Additional observations from a re-analysis of the deposited data

Results flagged for a closer look

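Among the 7 Notch genes kept in the antibody fit, 3 had antibody differences of opposite sign in the lines. The log2 difference of Jag1 was 1.10 in BLS12 but -0.66 in BLS4. That of Dll1 was 0.49 in BLS12 and -0.0544 in BLS4, and that of Notch1 was 0.0398 in BLS12 and -0.31 in BLS4. With 1 array per line and condition, the difference between the lines was not tested for any of them. Opposite signs were common among all genes, in 40.1% of the 11988 kept.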

How the results depend on the processing

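Of the 276 recomputed values of single Notch genes, only those from limma had an adjusted p and could pass the threshold. Of all 276, 229 kept direction and call or stayed within 1 SD, 45 moved and 2 came past the threshold. Both were of Hes1, which had adjusted p-values from 0.0139 to 1 in limma over its alternatives. With all 4 line arrays in the fit, 0 signs reversed. No Notch gene passed in the main limma fits, so leaving out arrays could turn no called direction there. Signs did change. Without BLS12 the antibody difference of Jag1 went from 0.22 to -0.66. Without BLS4 that of Notch1 went from -0.13 to 0.04. BLS12 minus BLS4 went from 0.11 to -0.34 for Hes1 in unstimulated arrays. For Notch3 it went from -0.15 to 0.06 in antibody-treated arrays. The antibody count of 33 genes became 98 with arrays centred on their medians, 6 after quantile normalization (adjusted p of Hes1 0.142), 54 with no filter and 115 with all 4 arrays above the median. With no replicate block, that is without the cell line in the model, it was 0, with 241 genes at an unadjusted p under 0.05. Centring and the filter on all 4 arrays each brought the Notch genes past the threshold from 0 to 1. The median of BLS12 moved by 0.13 log2 units with antibody and that of BLS4 by 0.02. Between the lines the count of 2835 became 1428 with no replicate block, without the antibody in the model. Leaving out 1 line, the 80 genes at least 2-fold apart with antibody became 188 to 447 and the Notch genes 1 to 2, Jag1 joining Hes1 without BLS4. The 749 genes at least 2-fold apart between the lines became 1444 in unstimulated arrays, and the Notch genes went from 0 to 1 in antibody-treated arrays. At 4-fold, LN stroma against MEF left 955 of 2815 genes and 1 of 2 Notch genes, the lines against MEF 183 of 738 and 0 of 2, and LN stroma against the lines 524 of 1447 and 2 of 5. Leaving out 1 line gave 1576 to 1770 genes and 2 to 3 Notch genes against MEF, and 2215 to 2930 genes and 5 Notch genes for LN stroma against a line. The cause of these changes was not tested, except that a pair of arrays fewer must meet the size when a line is left out.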
